A study of Mus musculus with 72 samples.

Results

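Leptin and 9 other genes of fat cells were followed through the gastrocnemius, a fast limb muscle, and the white fat of *Bmal1*-KO mice. The 10 genes (*Lep*, *Adipoq*, *Retn*, *Cfd*, *Plin1*, *Fabp4*, *Cidec*, *Pparg*, *Car3*, and *Aebp1*), of 55401 in the tables, were chosen by values seen in an earlier look at these data, *Car3* and *Aebp1* because they led the KO+AAV versus KO difference in muscle at 10 weeks. Their values in muscle and white fat are therefore given as a description, without *P* values. All 10 passed the filter on low values in gastrocnemius, in the GFP experiment, and in white fat.

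Poly(A) RNA of male mice was sequenced in 72 libraries. WT mice were littermates of whole-body *Bmal1*-KO mice, and KO+AAV mice were *Bmal1*-KO mice given an AAV9 vector soon after birth in which CK6, a promoter active in skeletal muscle fibers, drives HA-tagged *Bmal1*. Gastrocnemius was collected from WT (*n* = 6), KO (*n* = 6), and KO+AAV (*n* = 7) mice at 10 weeks of age and from 5 mice of each group at 40 weeks, and white fat, lung, heart, and liver from 4 KO and 4 KO+AAV mice at 40 weeks. In a separate 10-week experiment, 3 *Bmal1*-KO mice given AAV9-CK6-GFP (KO+GFP) were set beside 3 *Bmal1*-KO controls. The white fat depot is not stated, and no white fat of WT mice was analysed here. Reads on genes were 9325122 to 41733282 per gastrocnemius library (median 11796140), 6754312 to 8515400 in the GFP experiment, and 36903079 to 50755829 in the other tissues. Values are normalized counts, which are reads on a gene divided by a size factor per library, unless rpm are named, which are reads on a gene per 1000000 reads of the library.

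White adipocytes store triglyceride in a single large lipid droplet and secrete hormones. Leptin reports the size of the fat store to the brain and rises in the blood as fat mass grows, whereas adiponectin increases insulin sensitivity. Skeletal muscle holds few adipocytes, which lie between fibers and bundles and arise from fibro-adipogenic progenitors. BMAL1 is the transcription factor that, paired with CLOCK, drives the circadian clock by binding E-box elements.

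The sequences upstream of 3 genes on which the results turn are shown because their muscle levels went different ways. The promoters of 8 of the 10 genes, 11 start sites in all, were found in RefSeq on GRCm38.p6 as windows of 300 bases. *Fabp4* and *Car3* were not matched. The printed parts are the 250 bases before the start site, read 5′ to 3′ on the gene's strand. They lie at chr6:29059971-29060220 (+) for *Lep*, chr16:23146286-23146535 (+) for *Adipoq*, and chr11:5861616-5861865 (+) for *Aebp1*. Capitals mark a match to TTGCNNAA on either strand, a form of the site bound by C/EBP proteins, which drive adipocyte differentiation.
Lep: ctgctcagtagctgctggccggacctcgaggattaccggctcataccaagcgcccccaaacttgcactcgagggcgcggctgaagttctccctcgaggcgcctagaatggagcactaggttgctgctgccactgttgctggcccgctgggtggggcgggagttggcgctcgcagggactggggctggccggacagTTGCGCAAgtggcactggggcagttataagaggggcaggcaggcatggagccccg
Adipoq: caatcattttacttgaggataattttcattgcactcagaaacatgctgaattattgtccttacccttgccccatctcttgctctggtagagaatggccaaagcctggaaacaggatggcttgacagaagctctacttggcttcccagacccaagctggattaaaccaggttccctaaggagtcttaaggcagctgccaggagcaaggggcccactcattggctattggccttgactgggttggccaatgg
Aebp1: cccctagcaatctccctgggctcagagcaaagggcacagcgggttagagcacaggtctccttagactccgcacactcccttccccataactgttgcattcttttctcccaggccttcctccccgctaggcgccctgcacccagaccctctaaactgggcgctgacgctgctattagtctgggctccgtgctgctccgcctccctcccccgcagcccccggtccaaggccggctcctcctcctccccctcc
The match in *Lep* began at position -55. Such a match was in 4 of the 11 windows (36.4%), those of *Lep*, *Plin1*, and 1 start site each of *Cidec* and *Pparg*, and in 10.8% of all 32851 promoter windows of the same length. The E-box CACGTG was in 0 of the 11 windows and in 7.15% of all windows. The element bound by PPARγ with its partner RXR, searched as AGGTCA repeated after a gap of 1 base, was in 0 of the 11 and in 0.0396% of all.

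The labels were checked against *Arntl*, the gene of BMAL1, and against clock genes that BMAL1 drives. At 10 weeks *Arntl* was between 402 and 634 in WT (median 527), 196 and 296 in KO (median 236), and 169 and 281 in KO+AAV muscle (median 222). At 40 weeks it was 608, 589, 573, 571, and 480 in WT, 381, 1039, 395, 312, and 308 in KO, and 298, 268, 317, 359, and 313 in KO+AAV. The library labelled KO replicate 2 at 40 weeks was thus above every WT library. Its *Nr1d2* (247) and *Per3* (3.58), a clock repressor and a period gene, were below every WT library, as in the other KO muscles. *Arntl* was 1.14 ± 0.19 (SE) higher on the log2 scale in WT than in KO at 10 weeks (limma, adjusted *P* = 6.59e-05), and the difference was 0.38 ± 0.20 at 40 weeks (adjusted *P* = 0.182). Without the library labelled KO replicate 2 the 40-week difference was 0.70 ± 0.14 (adjusted *P* = 0.000363). *Arntl* in KO+AAV differed from KO by -0.06 ± 0.18 at 10 weeks (adjusted *P* = 0.962), while *Nr1d2* rose in KO+AAV by 1.96 ± 0.16 at 10 weeks and 1.74 ± 0.19 at 40 weeks (adjusted *P* = 3.88e-09 and 9.39e-07). Not every clock gene followed *Nr1d2*. The KO, KO+AAV, and WT means at 10 weeks were 26.2, 202, and 230 for *Per3* and 112, 388, and 571 for *Dbp*. They were 610, 644, and 2297 for *Nr1d1* and 160, 146, and 40.6 for *Npas2*. For these last genes the 40-week means were 675, 864, and 2665, and 238, 140, and 29.9.

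The tissues were checked against their own markers. Genes of fast and general muscle fibers summed to 91480.1 to 181237 rpm over the gastrocnemius libraries (group medians 117397 to 157195 rpm), with the fast myosin *Myh4* the most abundant over the 40 libraries. Markers of white adipocytes outside the 10 genes summed to 6653 to 11070.3 rpm in 7 of the 8 white fat libraries. White fat KO replicate 2 had 1444.34 rpm of these markers and 42649.6 rpm of epididymis genes, led by *Gpx5*, against 27.8 rpm or less in the other 7. White fat KO+AAV replicate 3 held 325.938 rpm of *Ucp1*, the uncoupling protein of brown fat. Heart KO replicate 2 held 27754 rpm of hepatocyte genes, led by *Alb*, against 7 to 11.1 rpm in the other hearts.

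*Lep* (chr6:29060220-29073877 on GRCm38, plus strand, protein coding like the other 9) had its widest spread between groups in 40-week muscle. In WT muscle at 40 weeks it was at 53.4, 352, 278, 421, and 37.5. In KO it was at 0, 0, 3.07, 8.92, and 2.76, and in KO+AAV at 7.97, 1.40, 6.66, 15.3, and 20.4. All 5 WT muscles were above all KO and KO+AAV muscles, whereas KO and KO+AAV overlapped. These values rest on 767 *Lep* reads in the WT libraries together, 9 in KO, and 39 in KO+AAV. The 2 KO libraries with 0 reads (replicates 1 and 2) allow 3 reads each, a normalized count of up to 4.13 and 5.37, by counting error only. On the log2(normalized count + 1) scale, WT was 5.82 ± 0.80 (SE) above KO, 56.5-fold, and KO+AAV was 1.71 ± 0.80 above KO. Without the library labelled KO replicate 2 the differences were 5.46 and 1.35, and over each library left out in turn 5.46 to 6.32 and 1.35 to 2.19.

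At 10 weeks the order of *Lep* was not that of 40 weeks. It was at 3.28 to 50.3 in WT (median 11.2), 6.73 to 81.1 in KO (median 24.4), and 8.85 to 198 in KO+AAV muscle (median 39.6). All 3 groups overlapped. WT minus KO was -0.93 ± 0.73 (log2 ± SE) and KO+AAV minus KO was 0.65 ± 0.70. From 10 to 40 weeks *Lep* was 4.14 ± 0.82 higher in WT, 2.61 ± 0.82 lower in KO, and 1.54 ± 0.81 lower in KO+AAV. Without the library labelled KO replicate 2 the KO difference was -2.25. With libraries of the Novogene site alone, where all 40-week muscles were sequenced, these differences were 3.63 ± 0.87, -2.93 ± 0.87, and -0.70 ± 0.87. The WT minus KO difference was 6.75 ± 1.08 larger at 40 than at 10 weeks.

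*Adipoq* (chr16:23146536-23158028, plus strand), which encodes adiponectin, had a smaller difference in the same direction at 40 weeks. It was at 43.0, 289, 264, 418, and 51.6 in WT, at 27.5, 64.5, 26.1, 16.1, and 67.6 in KO, and at 65.3, 16.8, 44.4, 104, and 91.1 in KO+AAV. WT replicates 2, 3, and 4 were above all other 40-week muscles, and WT replicates 1 and 5 lay within the range of the others. WT minus KO was 2.06 ± 0.68 on the log2 scale (4.17-fold, and 1.69 to 2.50 over libraries left out in turn), and KO+AAV minus KO was 0.63 ± 0.68. These were 2.28 and 0.84 without the library labelled KO replicate 2. At 10 weeks *Adipoq* was at 28.6 to 161 in WT (median 55.9), 15.1 to 233 in KO (median 80.0), and 50.1 to 733 in KO+AAV (median 124), and the 3 groups overlapped. WT replicates 2, 3, and 4 were also the 3 highest for *Lep* at 40 weeks.

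**Figure D1:**
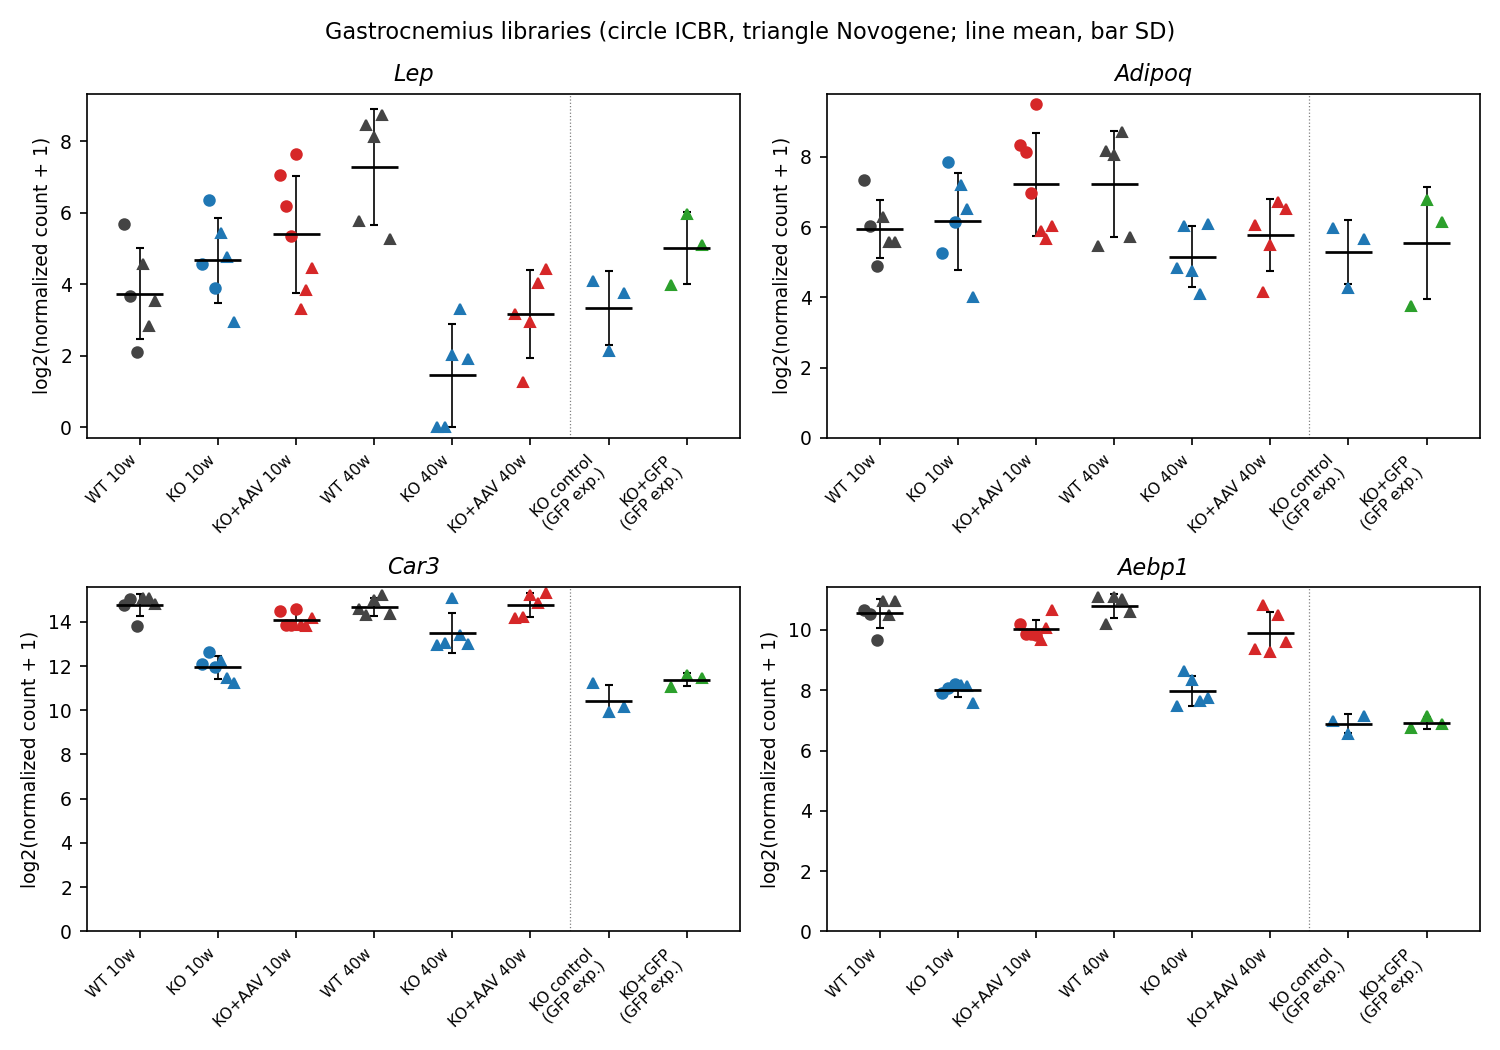
Normalized counts on a log2 scale (vertical axis) of *Lep*, *Adipoq*, *Car3*, and *Aebp1* in each muscle library of the 8 groups, with circles for libraries of the ICBR site, triangles for Novogene, lines for the mean, and bars for the SD. At 40 weeks the 5 WT muscles (37.5 to 421 for *Lep*) lie above the KO muscles (0 to 8.92), and the dotted line sets apart the GFP experiment, which was normalized on its own.

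The other secreted proteins did not follow *Lep* at 40 weeks. *Retn* (chr8:3655770-3660110, plus strand) encodes resistin and *Cfd* (chr10:79890853-79892655, plus strand) encodes adipsin, the complement factor D of fat. *Retn* was at 4.45, 56.4, 42.5, 67.2, and 9.38 in WT, 12.4, 25.1, 35.3, 14.3, and 34.5 in KO, and 36.7, 9.82, 29.9, 91.6, and 62.3 in KO+AAV at 40 weeks. *Cfd* was at 171, 509, 595, 499, and 181 in WT, 157, 580, 303, 248, and 423 in KO, and 269, 161, 301, 620, and 596 in KO+AAV. For both genes the 3 groups overlapped, and WT minus KO was 0.10 ± 0.85 for *Retn* and 0.14 ± 0.59 for *Cfd*, and 0.14 and 0.36 without the library labelled KO replicate 2. At 10 weeks the WT, KO, and KO+AAV medians of *Cfd* were 407, 365, and 425, and *Retn* ranged from 4.54 to 66.5, from 0 to 86.8, and from 17.7 to 303 in the same order. One library, KO+AAV replicate 4 at 10 weeks, held the highest *Cfd* (3321), *Retn* (303), *Adipoq*, and *Lep* of the 10-week muscles.

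Genes of the lipid droplet stood between *Adipoq* and *Cfd*. *Plin1* (chr7:79720218-79732903, minus strand), which coats the droplet and holds back lipases, was at 66.7, 239, 230, 316, and 26.6 in WT, 19.3, 12.5, 56.7, 44.6, and 80.0 in KO, and 89.3, 29.5, 46.6, 130, and 116 in KO+AAV at 40 weeks. *Cidec* (chr6:113424634-113435760, minus strand), which helps to fuse droplets into a single large one, was at 62.3, 291, 257, 341, and 39.1 in WT, 39.9, 143, 41.4, 39.3, and 55.2 in KO, and 66.9, 35.1, 29.9, 150, and 80.3 in KO+AAV. In both genes WT replicates 2, 3, and 4 were again above every KO and KO+AAV muscle, and the other WT muscles were not. WT minus KO was 1.83 ± 0.71 for *Plin1* and 1.37 ± 0.69 for *Cidec*. Without the library labelled KO replicate 2, which had the lowest *Plin1* and the highest *Cidec* of the KO group, these were 1.48 and 1.71.

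*Fabp4* (chr3:10204088-10208576, minus strand), a fatty acid-binding protein that capillary endothelium and macrophages also make, did not differ between WT and KO at 40 weeks beyond its error (0.00 ± 0.19). It was at 1403, 2584, 1681, 2224, and 1840 in WT, 2256, 1015, 2198, 2031, and 2411 in KO, and 2188, 1576, 2193, 2359, and 2063 in KO+AAV. *Pparg* (chr6:115360951-115490399, plus strand), the nuclear receptor that governs adipocyte differentiation, was at 31.1, 48.9, 38.9, 53.2, and 43.8 in WT, 49.5, 28.7, 52.1, 44.6, and 95.2 in KO, and 39.8, 32.3, 63.2, 61.0, and 34.8 in KO+AAV. The groups overlapped for both genes, and WT minus KO for *Pparg* was -0.23 ± 0.29. The library labelled KO replicate 2 was the lowest KO muscle in both, and without it WT minus KO was -0.22 for *Fabp4* and -0.43 for *Pparg*. At 10 weeks the WT, KO, and KO+AAV medians of *Fabp4* were 1921, 2671, and 2729. *Pparg* ranged from 24.1 to 60.4, from 36.9 to 66.9, and from 51.5 to 147 in the same order, with all 3 groups overlapping.

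*Car3* (chr3:14863512-14872523, plus strand), a carbonic anhydrase of muscle fibers, adipocytes, and hepatocytes, was higher in WT and KO+AAV than in KO at 10 weeks without overlap. The range was 14202 to 35000 in WT (median 31275), 2437 to 6376 in KO (median 4188), and 14422 to 24691 in KO+AAV (median 15033). On the log2 scale WT was 2.82 ± 0.30 and KO+AAV 2.14 ± 0.29 above KO. The 2 sites gave 2.30 (ICBR) and 3.34 (Novogene) for WT minus KO and 1.97 and 2.29 for KO+AAV minus KO. WT replicate 4 was lowest of the WT group in *Car3* and in *Aebp1* (818).

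At 40 weeks *Car3* was at 24137, 20035, 32100, 37678, and 20795 in WT, 7899, 8523, 34988, 10779, and 8177 in KO, and 18303, 19340, 38191, 29340, and 40240 in KO+AAV. KO replicate 3 was at the level of the WT muscles, and the other 4 KO muscles were below all WT and KO+AAV muscles. WT minus KO was 1.17 ± 0.33 and KO+AAV minus KO was 1.25 ± 0.33, and without KO replicate 3 they were 1.57 and 1.65. Leaving out the library labelled KO replicate 2 gave 1.06 and 1.14. In KO muscle *Car3* was 1.62 ± 0.33 higher at 40 than at 10 weeks, with no overlap of the 2 ages (2.43% of all genes lay higher at 40 weeks without overlap), and 1.22 higher without KO replicate 3. In WT the difference between the ages was -0.03 ± 0.33.

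*Aebp1* (chr11:5861947-5872088, plus strand), which encodes an extracellular matrix protein made by fibroblasts and preadipocytes, was lowest in KO at both ages. At 10 weeks it was at 818 to 1999 in WT (median 1564), 188 to 294 in KO (median 277), and 805 to 1606 in KO+AAV (median 940). At 40 weeks it was at 2166, 1182, 2198, 2078, and 1549 in WT, 179, 401, 322, 198, and 215 in KO, and 661, 1808, 612, 1437, and 775 in KO+AAV. KO overlapped with neither WT nor KO+AAV at either age, and WT overlapped with KO+AAV at both. WT minus KO was 2.53 ± 0.24 at 10 weeks and 2.83 ± 0.27 at 40 weeks, and KO+AAV minus KO was 2.02 ± 0.23 and 1.93 ± 0.27. With the library labelled KO replicate 2 left out, KO+AAV minus KO at 40 weeks was 2.10, and KO overlapped with neither group. *Aebp1* differed between 40 and 10 weeks by 0.15 for WT mice, -0.14 for KO mice, and -0.22 for KO+AAV mice, each within its error.

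At 10 weeks the KO+AAV minus KO difference of the adipocyte genes was larger at the ICBR site than at Novogene. At ICBR it was 1.61 ± 0.84 for *Lep*, 1.82 ± 0.73 for *Adipoq*, and 1.49 ± 0.69 for *Cfd*, and at Novogene -0.52 ± 0.97, -0.05 ± 0.82, and -0.36 ± 0.65. *Retn* (1.79 and 0.54), *Plin1* (1.55 and 0.36), *Cidec* (1.31 and 0.40), and *Pparg* (0.72 and 0.19) were positive at both sites, and *Fabp4* was at 0.33 and -0.09. The sites held different mice, 4 KO+AAV and 3 KO at ICBR and 3 of each at Novogene, and the difference between sites was not tested. With KO+AAV replicate 4, an ICBR library, left out, the pooled difference fell from 0.65 to 0.36 for *Lep*, from 0.97 to 0.67 for *Adipoq*, and from 0.66 to 0.29 for *Cfd*. *Aebp1* was 1.88 ± 0.21 higher in KO+AAV at ICBR and 2.15 ± 0.37 at Novogene.

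Counts of the 10 genes past an adjusted *P* of 0.05 (limma) stand beside the share of all tested genes, and nothing is read from them, since these contrasts named the genes. WT versus KO called 2 genes higher at 10 weeks, where 4.26% of all 16199 tested genes were called higher (8% in either direction), and 4 at 40 weeks (12% higher, 23.5% in either direction), where edgeR and DESeq2 called 5 each. KO+AAV versus KO called 2 higher at 10 weeks (0.136% of all genes higher, 0.204% in either direction) and 1 at 40 weeks (0.222% and 0.259%). The median of the 10 log2 differences was -0.03 for WT versus KO at 10 weeks (0.29 without WT replicate 4) and 1.27 at 40 weeks. For KO+AAV versus KO it was 0.94 at 10 weeks and 0.66 at 40 weeks, where it ran from 0.38 (without KO+AAV replicate 4) to 1.08 (without KO+AAV replicate 2) over libraries left out. The medians of all genes lay between -0.01 and 0.02. The 2 comparisons at each age share their KO libraries. Between the ages, 1 gene was called higher in WT (0.111% of all genes higher, 0.148% in either direction), and 1 was called higher (4.05%) and 1 lower (4.26%) in KO (8.31% in either direction). Without the 40-week library labelled KO replicate 2, 2.91% of all genes were called in either direction in KO. In KO+AAV 0 were called (8.53% of all genes in either direction), where limma gave 2 genes at unadjusted *P* under 0.05 and edgeR and DESeq2 called 0. Groups did not overlap, with the first higher, for 2 genes in both 10-week comparisons (3.45% of all genes for WT versus KO and 0.29% for KO+AAV versus KO). At 40 weeks they did so for 2 and 1 genes (6.9% and 0.623%).

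**Figure D2:**
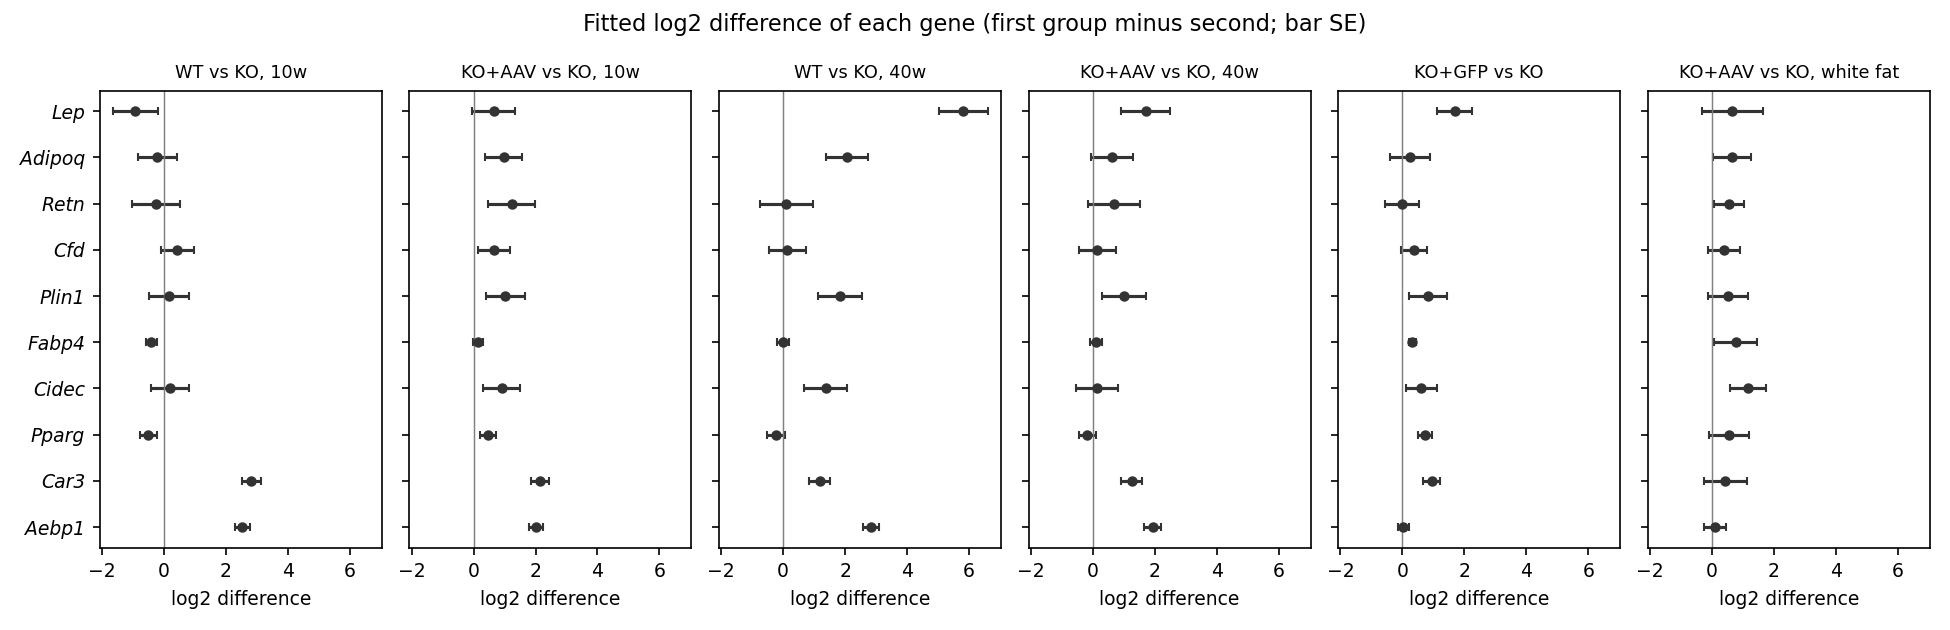
Log2 differences of the 10 genes (points) with SE (bars) in 6 comparisons, each the first group minus KO. *Lep* reaches 5.82 in WT versus KO at 40 weeks, and *Car3* and *Aebp1* lie between 2.02 and 2.82 in both 10-week comparisons.

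The number of *Lep* reads per *Adipoq* read, which does not depend on library size, set WT apart from KO and KO+AAV at 40 weeks. In WT at 40 weeks it was 1.24, 1.22, 1.05, 1.01, and 0.727. In KO it was 0, 0, 0.118, 0.556, and 0.0408, and in KO+AAV 0.122, 0.0833, 0.150, 0.147, and 0.224. No KO or KO+AAV muscle reached the lowest WT muscle, and KO and KO+AAV overlapped. At 10 weeks the ratio was 0.115 to 0.313 in WT (median 0.204), 0.201 to 0.608 in KO (median 0.318), and 0.152 to 0.408 in KO+AAV (median 0.270), all below the WT range at 40 weeks. In white fat it was 0.694, 0.233, 0.495, and 0.544 in KO and 0.670, 0.200, 0.668, and 0.513 in KO+AAV. The lowest WT muscle at 40 weeks was thus above the highest white fat library of either group. Summed over libraries, 767 *Lep* and 709 *Adipoq* reads gave 1.08 in WT at 40 weeks, 9 and 131 gave 0.0687 in KO, and 39 and 237 gave 0.165 in KO+AAV.

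**Figure D3:**
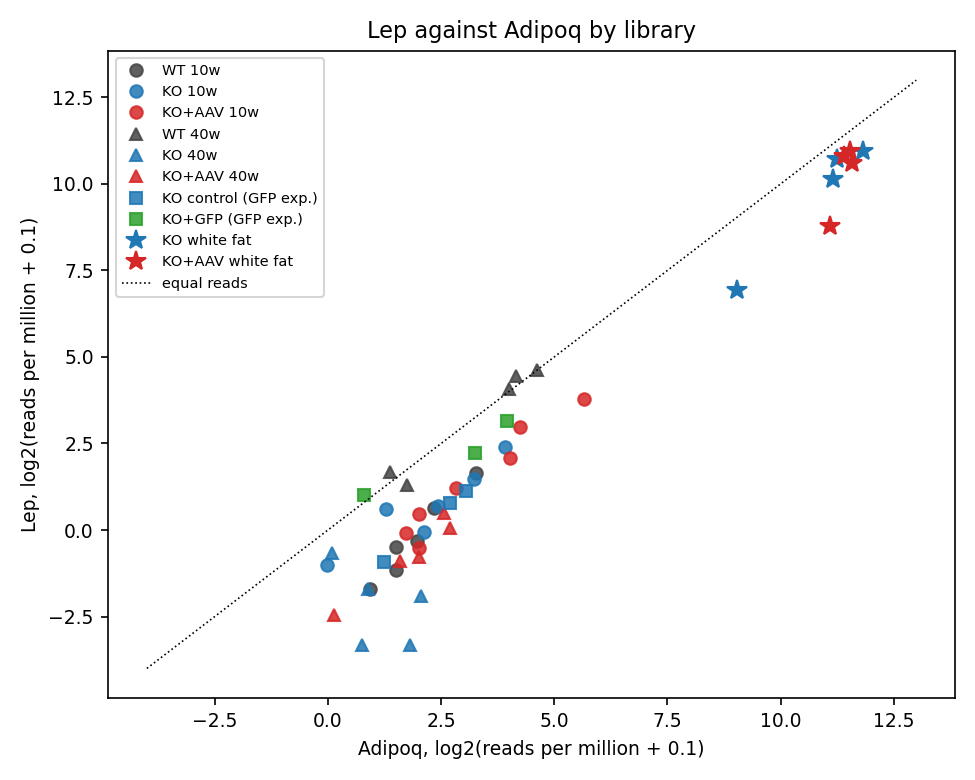
*Lep* against *Adipoq* in each muscle and white fat library, both axes in rpm on a log2 scale, with a line where the 2 genes have equal reads. WT muscles at 40 weeks lie about the line (0.727 to 1.24 *Lep* reads per *Adipoq* read), and the other muscles of the main experiment and white fat lie below it.

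White fat set the scale of the muscle levels. The muscle and fat tables were normalized separately, so rpm were compared. Over the 8 white fat libraries the median was 1634 rpm for *Lep* and 2568 rpm for *Adipoq*. The median of WT muscle at 40 weeks was 1.02% of the white fat level for *Lep* and 0.617% for *Adipoq*, and that of KO muscle 0.0102% and 0.0682%. *Fabp4* lay between 1.02% and 1.44% of its white fat level in all 6 groups of the main experiment. At 10 weeks the WT, KO, and KO+AAV muscle medians of *Car3* were at 11.1%, 1.57%, and 5.94% of its white fat level, and those of *Aebp1* at 51.7%, 9.40%, and 35.2%. Per kilobase of exon, *Car3* had the highest median of the 10 genes in 10-week WT muscle (642 RPKM) and *Lep* the lowest (0.196 RPKM). In WT muscle at 40 weeks the *Lep* median of 4.98 RPKM was above those of *Plin1* (2.98), *Retn* (1.62), and *Pparg* (0.943), and below those of *Cidec* (8.31), *Adipoq* (11.5), *Fabp4* (26.1), *Aebp1* (29.9), *Cfd* (31.6), and *Car3* (488).

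In white fat itself, *Lep* was at 82862, 5130, 45573, and 94746 in KO and at 90757, 17127, 91808, and 80989 in KO+AAV. *Adipoq* was at 119360, 21980, 92002, and 174316 in KO and at 135362, 85684, 137380, and 157888 in KO+AAV. *Car3* was at 788465, 185918, 623960, and 981069 in KO and at 905827, 372683, 863041, and 1008520 in KO+AAV. In all 3 genes KO replicate 2 was the lowest library, followed by KO+AAV replicate 2, and the groups overlapped. KO+AAV minus KO was 0.66 ± 0.99 for *Lep*, 0.64 ± 0.62 for *Adipoq*, 1.17 ± 0.59 for *Cidec*, and 0.09 ± 0.35 for *Aebp1*, with a median over the 10 genes of 0.55. Without KO replicate 2, the library with epididymis genes, the differences were -0.28, 0.02, 0.57, and 0.00, and the median was -0.04. Without KO+AAV replicate 3, the library with *Ucp1*, they were 0.45, 0.60, 1.12, and -0.23, and the median was 0.47. KO+AAV replicate 2 held 178 rpm of skin and mammary epithelium markers, led by *Krt8*, and 20.1 rpm of epididymis genes, against 1.40 to 14.8 and 0.913 rpm or less in the other KO+AAV fats, and without it the differences were 1.25, 0.83, 1.21, and 0.11, and the median was 0.80. KO replicates 2 and 3 held 729 and 298 rpm of the epithelium markers, and the other 2 KO fats 1.60 and 3.91 rpm, and without KO replicate 3 the median was 0.58. The part of these cells in the white fat values was not tested. Limma called 0 of the 10 genes, 0 at unadjusted *P* under 0.05, and edgeR and DESeq2 called 0, where 0% of all 21092 tested genes were called. Nothing is read from these counts, since the rule that named the genes covers white fat.

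In the GFP experiment, in which AAV9-CK6-GFP stood in for the *Bmal1* vector, *Lep* was at 14.6, 61.1, and 33.5 in KO+GFP and at 15.9, 3.41, and 12.4 in control KO muscle. *Adipoq* was at 12.4, 109, and 69.6 against 61.5, 18.2, and 49.7, and *Aebp1* at 107, 140, and 117 against 126, 92.1, and 142. These 3 genes overlapped between the groups. *Pparg* was at 34.9, 43.8, and 37.9 against 20.8, 22.7, and 24.9, and *Fabp4* at 1138, 1559, and 1247 against 1095, 1049, and 986. *Car3* was at 2107, 3122, and 2853 against 2438, 960, and 1123. Only *Pparg* and *Fabp4* of the 10 did not overlap, where 11% of all genes lay higher in KO+GFP without overlap. KO+GFP minus control was 1.69 ± 0.56 for *Lep*, 0.26 ± 0.64 for *Adipoq*, 0.94 ± 0.27 for *Car3*, and 0.03 ± 0.18 for *Aebp1*. Limma called 0 of the 10 at an adjusted *P* of 0.05 (3.09% of all 14477 genes), 4 at unadjusted *P* under 0.05, edgeR 0, and DESeq2 1, and nothing is read from these counts. The number of *Lep* reads per *Adipoq* read was 1.18, 0.561, and 0.481 in KO+GFP (125 *Lep* and 222 *Adipoq* reads in all) and 0.258, 0.188, and 0.250 in control muscle (31 and 126 reads), so the groups did not overlap. Over each library left out in turn, the log2 difference lay between 1.10 and 2.21 for *Lep* and between -0.36 and 1.16 for *Adipoq*. The *Lep* per *Adipoq* ratio of KO+GFP replicate 1, on 13 and 11 reads, lay within the 40-week WT range of 0.727 to 1.24.

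The rule that named the genes covers muscle, the GFP experiment, and white fat, but not lung, heart, and liver, so tests are given in these 3 tissues. Whether earlier values there played a part in the choice of genes is not recorded. In lung, *Lep* was at 0, 0, 218, and 0.867 in KO and at 114, 3.46, 372, and 46.1 in KO+AAV. *Adipoq* was at 2.10, 19.1, 1844, and 72.0 in KO and at 1193, 130, 2433, and 604 in KO+AAV. KO replicate 3 was at the level of the high KO+AAV lungs in both genes, and KO+AAV replicate 2 was the lowest lung of its group. The log2 difference was 3.61 ± 1.88 for *Lep* (limma, adjusted *P* = 0.481), 3.69 ± 1.72 for *Adipoq* (adjusted *P* = 0.437), and 3.05 ± 1.35 for *Retn* (adjusted *P* = 0.418). Without KO replicate 3 these were 5.47, 5.39, and 4.26, with 0 of the 10 genes called. With all lungs the difference was 0.10 ± 0.22 for *Aebp1* (adjusted *P* = 0.885) and -0.28 ± 0.21 for *Pparg* (adjusted *P* = 0.624). Of the 10 genes, 9 were higher in KO+AAV lung, but limma called 0 (0.0237% of all 21072 genes), 1 at unadjusted *P* under 0.05, and edgeR and DESeq2 called 0. White adipocyte markers outside the 10 genes summed to 76.5, 84.7, 276, and 84.6 rpm in KO and 209, 119, 377, and 164 rpm in KO+AAV lung, with *Thrsp* the most abundant over the 8 libraries. In the summed markers KO replicate 3 was again the highest KO lung and KO+AAV replicate 2 the lowest KO+AAV lung, and *Aqp7* was at 0 in KO replicates 1 and 2. Sums of other lists also differed between KO and KO+AAV lungs. Genes of fast and general muscle fibers, led by *Mb*, summed to 106 to 297 rpm in KO and 340 to 849 rpm in KO+AAV lung, and slow fiber genes, led by *Atp2a2*, a calcium pump that heart muscle also makes, to 298 to 738 and 839 to 2429 rpm. Macrophage markers, led by *Lyz2*, summed to 3350 to 4354 rpm in KO and 2479 to 3284 rpm in KO+AAV. Endothelial markers, led by *Vwf*, summed to 3267 to 3877 rpm in KO and 2623 to 3170 rpm in KO+AAV. None of these 4 sums overlapped between the groups. Brown and beige adipocyte markers summed to 242 rpm in KO replicate 3 and to 39.8 to 73.6 rpm in the other 7 lungs. The part of these cells in the result was not tested.

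In heart, *Adipoq* was at 75.0, 0, 74.0, and 95.4 in KO and at 156, 83.7, 6.57, and 0.998 in KO+AAV. *Car3* was at 277, 51285, 146, and 558 in KO and at 785, 274, 35.1, and 15.0 in KO+AAV. KO replicate 2, the heart with hepatocyte genes, was alone in *Car3*. In *Adipoq* it was the only heart at 0, with KO+AAV replicates 3 and 4 also low. The *Car3* difference was -3.30 ± 1.98 (limma, adjusted *P* = 0.862), and -1.42 without that library. *Lep* differed by 1.08 ± 1.09 (adjusted *P* = 0.862) and *Adipoq* by -0.36 ± 1.87 (adjusted *P* = 0.966), and without that library by 0.52 and -1.95. Limma called 0 of the 10 genes in heart and 0 of the 5 that passed the filter in liver, with 0 at unadjusted *P* under 0.05 and 0 by edgeR and DESeq2 in either tissue (0% of all 18089 and 0% of all 16656 genes). *Lep* had 0 reads in all 8 livers, which allows a normalized count of 2.59 to 3.35 per library, by counting error only.

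**Figure D4:**
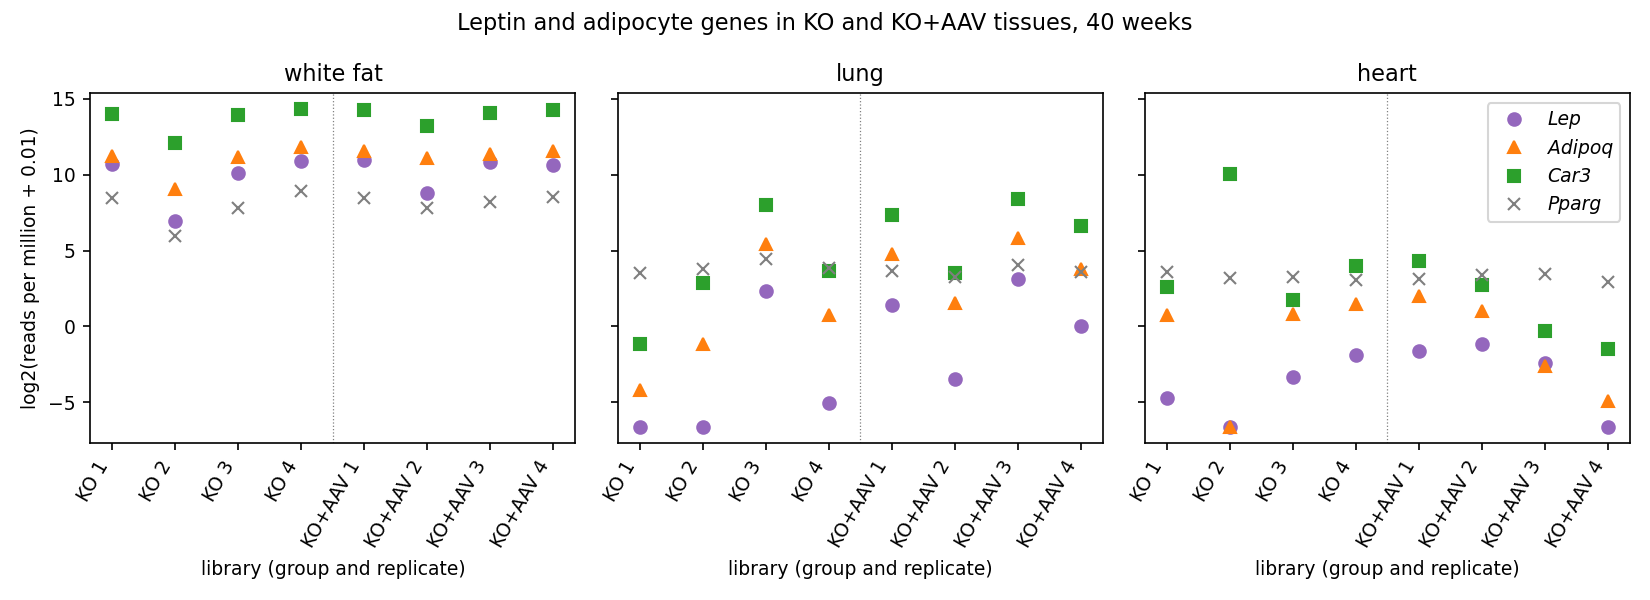
Levels of *Lep*, *Adipoq*, *Car3*, and *Pparg* in rpm on a log2 scale (vertical axis) in each KO and KO+AAV library of white fat, lung, and heart at 40 weeks (horizontal axis). In lung, KO replicate 3 (*Lep* at a normalized count of 218) lies with the high KO+AAV libraries, and in heart KO replicate 2 stands alone in *Car3* (normalized count 51285).

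Across the 34 gastrocnemius libraries of the main experiment, the genes fell into sets that varied together. Pearson correlations of log2 values among *Adipoq*, *Retn*, *Cfd*, *Plin1*, and *Cidec* were 0.793 to 0.888 (median 0.830), and 0.806 to 0.916 after the mean of each group and site was subtracted. *Lep* correlated with these 5 at 0.507 to 0.811 (median 0.660), and at 0.677 to 0.880 after centring. Over all 34 libraries the other 4 genes had lower correlations with the 5. They were 0.217 to 0.551 for *Fabp4* (0.101 to 0.456 after centring), 0.221 to 0.418 for *Pparg* (0.207 to 0.435), 0.226 to 0.322 for *Car3* (0.300 to 0.499), and 0.101 to 0.349 for *Aebp1* (0.137 to 0.348). *Car3* and *Aebp1* correlated with each other at 0.77, and at 0.28 after centring, so that this relation lay mostly between the groups. The points share library, depth, and site, and are given as a description.

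**Figure D5:**
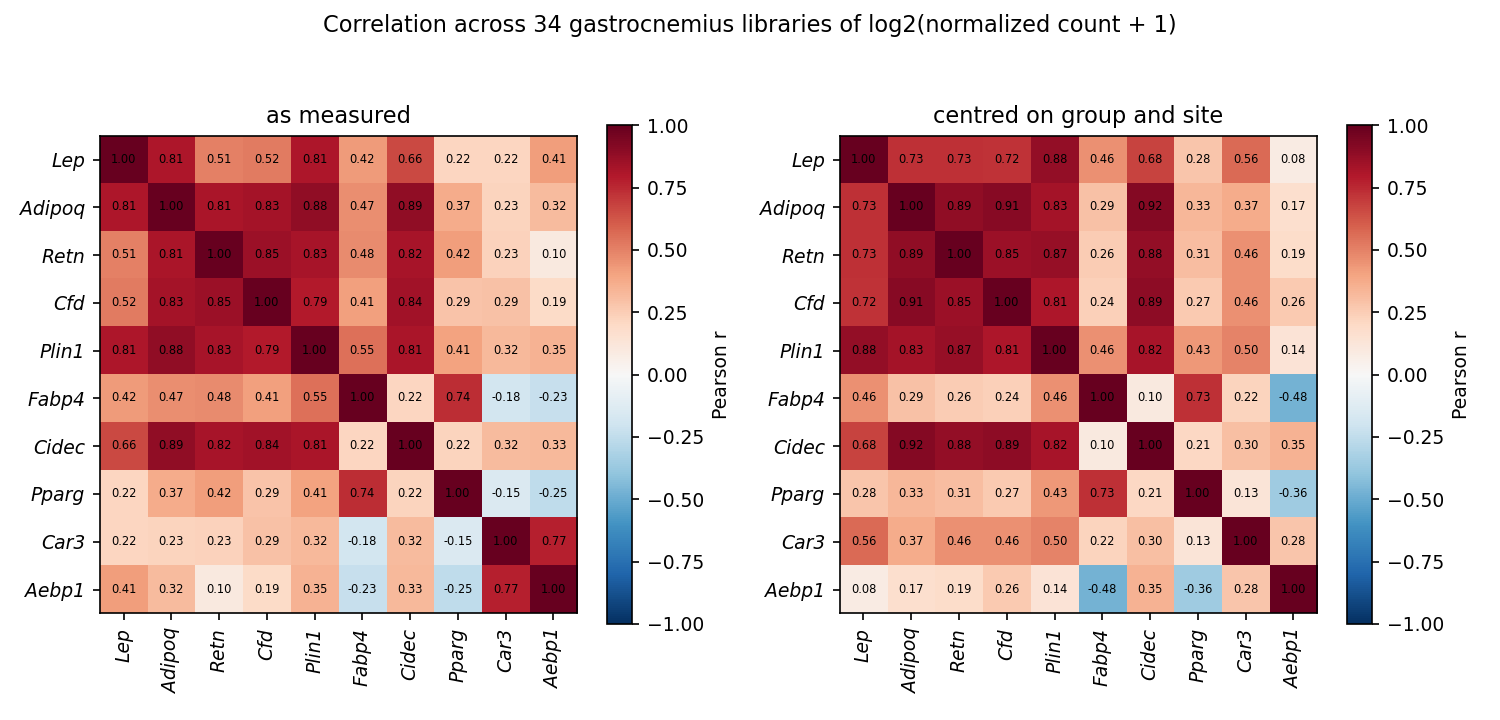
Pearson correlations between the 10 genes over 34 gastrocnemius libraries, as measured and after subtracting the mean of each group and site. The block of *Adipoq*, *Retn*, *Cfd*, *Plin1*, and *Cidec* (0.793 to 0.888 as measured) stays after centring, whereas the *Car3* and *Aebp1* pair goes from 0.77 to 0.28.

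The genes outside the 10 with the highest correlation over these libraries were named by rule. For *Lep* they were *A530020G20Rik* (0.869), *Dram1* (0.834), *Aoc3* (0.831), *Hp* (0.814), and *Nnat* (0.806), and for *Adipoq* they were *Prkar2b* (0.917), *Aoc3* (0.904), *Trf* (0.888), *Slc1a5* (0.881), and *Cdo1* (0.879). For *Aebp1* they were *Nr1d2* (0.935), *Per3* (0.911), *Hlf* (0.891), *Tbc1d1* (0.878), and *Slc2a3* (0.876), of which *Nr1d2*, *Per3*, and *Hlf* are clock or clock-driven genes. For *Car3* they were *Plp2* (0.791), *Nfatc2* (0.740), *Wls* (0.722), *Per3* (0.720), and *Atp9a* (0.705). After centring on group and site, *A530020G20Rik* (0.862) and *Hp* (0.806) remained among the 5 for *Lep*, *Prkar2b*, *Trf*, and *Cdo1* among those for *Adipoq*, *Nfatc2* among those for *Car3*, and none for *Aebp1*. *Car3* and *Aebp1* were chosen for a group difference in these libraries, so genes with the same difference were bound to rank high before centring.

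Genes of the same pathways that were not among the 10 were tested in the gastrocnemius model. These lists too were chosen with earlier results of these data known, so their *P* values are not independent support. Of 10 white adipocyte markers, 2 rose and 1 fell in WT against KO at 40 weeks, where 12% of all genes were called higher and 23.5% in either direction, with a median of 0.74 against 0.01 for all genes. Without the library labelled KO replicate 2, 1 rose and 2 fell (19.7% of all genes called in either direction). *Trarg1*, which takes part in GLUT4 traffic, was 1.40 ± 0.41 higher in WT (limma, adjusted *P* = 0.0133), at 19.3 to 62.7 in WT (median 40.7) and 10.7 to 20.6 in KO (median 12.5). *Slc7a10*, an amino acid transporter of white adipocytes, was 1.49 ± 0.49 higher (adjusted *P* = 0.026), a call lost without WT replicate 3 or 4 or KO replicate 2 or 3 (1.23 to 1.44). *Thrsp*, which acts in lipogenesis, fell by 0.90 ± 0.24 (adjusted *P* = 0.00703). The summed level of the 10 markers did not follow *Lep*, at 210 to 294 rpm in WT (median 288) and 302 to 808 rpm in KO (median 341) at 40 weeks. *Plin4*, which muscle fibers also express, was the most abundant in every library, with 793 of the 808 rpm in the library labelled KO replicate 2. Of the defining markers, *Adrb3* and *Hcar1* were at 0 in 2 and 2 of the 5 WT libraries and in 2 and 2 of the 5 KO libraries.

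In KO+AAV against KO, none of the 10 white adipocyte markers was called at either age. Limma gave 0 of them at unadjusted *P* under 0.05 at 10 weeks and 1 at 40 weeks (*Trarg1*, 0.95 ± 0.41, adjusted *P* = 0.429), and edgeR and DESeq2 called 0. The medians were 0.26 and 0.52. The difference between the ages in the WT minus KO contrast was positive for *Trarg1* (1.94 ± 0.56, adjusted *P* = 0.115), and limma, edgeR, and DESeq2 called 0 of the 10 markers for this change with age (3 at unadjusted *P* under 0.05 by limma, which called 0.37% of all genes). At 10 weeks WT against KO called 1 of the 10 markers (8% of all genes in either direction), *Thrsp*, which fell by 0.82 ± 0.22 (adjusted *P* = 0.0161).

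Among 9 genes of adipokine reception and leptin signaling, 2 rose and 2 fell in WT against KO at 40 weeks (12% of all genes higher, 23.5% in either direction), with the same counts without the library labelled KO replicate 2. *Jak2*, the kinase bound to the leptin receptor, rose by 1.23 ± 0.15 (limma, adjusted *P* = 1.8e-07), and *Appl1*, an adaptor of the adiponectin receptors, by 0.55 ± 0.09 (adjusted *P* = 4.83e-05). *Stat3*, the factor that the leptin receptor activates, fell by 0.90 ± 0.16 (adjusted *P* = 7.77e-05), and *Cdh13*, which binds adiponectin, by 0.70 ± 0.14 (adjusted *P* = 0.000319). At 10 weeks, where 8% of all genes were called in either direction, *Jak2* rose by 0.82 ± 0.13 (adjusted *P* = 6.41e-05). *Cdh13* was called lower in WT at that age, a call lost without WT replicate 4 (-0.40, limma, adjusted *P* = 0.0528). KO+AAV against KO called 0 of the 9 at both ages. *Socs3*, a feedback inhibitor of leptin signaling, was 1.80 ± 0.47 higher at 10 weeks (limma, adjusted *P* = 0.122). At that age edgeR and DESeq2 each called 1 of the 9 and limma gave 1 at unadjusted *P* under 0.05, and at 40 weeks edgeR and DESeq2 called 0 and limma gave 2.

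Of 11 genes of lipolysis, lipid droplet, and lipid uptake, 2 rose and 4 fell in WT against KO at 40 weeks (median -0.35), beside 12% of all genes higher and 23.5% in either direction. After leaving out the library labelled KO replicate 2, 1 rose and 5 fell. *Plin5*, which ties droplets to mitochondria in oxidative tissue, fell by 2.28 ± 0.32 (limma, adjusted *P* = 3.58e-06), and *Pnpla2*, the first lipase of triglyceride breakdown, by 1.45 ± 0.26 (adjusted *P* = 9.95e-05). *Pde3b*, through which insulin restrains lipolysis, rose by 1.31 ± 0.34 (adjusted *P* = 0.00561). *Plin5* also fell at 10 weeks, by 1.91 ± 0.29 (adjusted *P* = 2.81e-05). Of 14 tested paralogs of the 10 genes, 1 rose and 7 fell at 40 weeks (median -0.72), and 1 rose and 6 fell without that library. *Retnla*, a resistin-like gene of macrophages, rose by 2.44 ± 0.59 (adjusted *P* = 0.00282), and *Cidea*, the paralog of *Cidec* in brown fat, fell by 2.45 ± 0.54 (adjusted *P* = 0.00116). Of 8 other adipokines, *Rarres2* rose by 0.62 ± 0.14 (adjusted *P* = 0.00115) and *Agt* and *Lcn2* fell, *Lcn2* by 2.64 ± 0.82 (adjusted *P* = 0.019) and by 1.87 without the library labelled KO replicate 2, where the call was lost (adjusted *P* = 0.0935). KO+AAV against KO called 0 genes of these 3 lists at either age by limma. At unadjusted *P* under 0.05 limma gave 2 lipolysis and droplet genes, 2 paralogs, and 1 other adipokine at 10 weeks (edgeR and DESeq2 called 0, 0, and 1) and 0, 5, and 1 at 40 weeks (edgeR and DESeq2 called 0, 1, and 0).

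Among 11 adipogenic transcription factors, 3 rose and 0 fell in WT against KO at 40 weeks (median 0.25), where 12% of all genes were called higher and 23.5% in either direction, and 2 rose without the library labelled KO replicate 2. *Ebf2* rose by 1.10 ± 0.31 (limma, adjusted *P* = 0.0104) and *Rxra*, the partner of PPARγ, by 0.79 ± 0.13 (adjusted *P* = 2.3e-05). Of 12 genes of triglyceride synthesis, 1 rose, *Gpam* by 0.77 ± 0.23 (adjusted *P* = 0.0156), and by 0.37 ± 0.12 without that library (adjusted *P* = 0.0349). At 10 weeks, where 8% of all genes were called in either direction, 1 gene of the first list rose (*Rxra*, 0.48 ± 0.11, adjusted *P* = 0.00601), and 1 of the second fell (*Agpat2*, by 0.76 ± 0.23, adjusted *P* = 0.0333).

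Fibroblast markers, the 1 tested lymphocyte marker, and some genes of other cell types differed between WT and KO at 40 weeks. Of 11 markers of fibroblasts and fibro-adipogenic progenitors, 6 rose and 0 fell in WT against KO at 40 weeks (median 0.80), among them *Dpt* (1.98 ± 0.33, limma, adjusted *P* = 3.77e-05) and *Gsn* (1.70 ± 0.32, adjusted *P* = 0.000242). Of all genes, 12% were called higher and 23.5% in either direction, and without the library labelled KO replicate 2, 5 of the 11 rose. Their sum was 1156 to 1612 rpm in WT (median 1185), 253 to 834 in KO (median 579), and 286 to 1053 in KO+AAV (median 790). In KO+AAV against KO at 10 weeks limma called 0 of the 11 (5 at unadjusted *P* under 0.05, 0 by edgeR and DESeq2), with 11 of 11 positive and a median of 0.61, and 0 of 6 macrophage markers (5 at unadjusted *P* under 0.05, 0 by edgeR and DESeq2), with a median of 1.24. The fibroblast sum reached 6681 rpm in KO+AAV replicate 4, the library with the highest *Adipoq* and *Cfd*, against 530 to 1744 rpm in KO, and the macrophage sum, led by *Lyz2*, reached 504 rpm in KO+AAV replicate 5, against 22.3 to 65.4 rpm in KO. Lymphocyte markers, led by *Cd3e*, summed to a median of 2.40 rpm in WT at 40 weeks. Their sum was 0.0954 to 1.67 rpm in KO (median 0.751) and 0.165 to 1.72 rpm in KO+AAV (median 1.14), and all 5 WT libraries lay above both groups. Of these 6 markers, 1 passed the filter on low values and rose in WT against KO (*Cd3e*, 2.95 ± 0.57, adjusted *P* = 0.000285). Slow fiber genes summed to 553 to 10598.5 rpm in KO and 89.1 to 1717 rpm in WT at 40 weeks, so these groups overlapped. Also called in WT against KO were *Pecam1* (endothelial) and *Mb* (fiber), lower, and *Alb* (hepatocyte), *Tnni2*, and *Pvalb* (fiber), higher. Each call was lost without single libraries. Where lost, the difference was -0.34 to -0.38 for *Pecam1*, -1.06 for *Mb*, and 2.69 to 3.65 for *Alb*. It was 0.31 to 0.48 for *Tnni2* and 0.61 to 0.77 for *Pvalb*. The part of these cells in the values of the 10 genes was not tested, and in bulk tissue fewer cells of a type and less RNA per cell cannot be told apart.

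Genes of several lists also changed in the GFP experiment, where the vector held no *Bmal1*. Limma called 3.09% of all genes in either direction. Of 7 tested white adipocyte markers, 1 rose (*Plin4*, 0.97 ± 0.18, limma, adjusted *P* = 0.0127), a call lost without KO+GFP replicate 3 (0.99, adjusted *P* = 0.0721). Of 11 lipolysis and droplet genes, 4 rose (2 without KO+GFP replicate 1 or 3), among them *G0s2*, an inhibitor of the first lipase (1.51 ± 0.18, adjusted *P* = 0.00102), and *Plin5* (1.05 ± 0.17, adjusted *P* = 0.00711). Of 11 fibroblast markers, 6 rose (*Pi16*, 1.45 ± 0.19, adjusted *P* = 0.00171), and 3 without KO+GFP replicate 3. Of the macrophage markers 4 rose (*C1qa*, 2.47 ± 0.24, adjusted *P* = 0.00037), and 2 without KO+GFP replicate 2 or 3 or control replicate 3. The fibroblast sum was 1317 to 2098 rpm in KO+GFP and 726 to 1201 rpm in control muscle, and the macrophage sum 63.5 to 108 against 28.8 to 42.4 rpm. Of 7 slow fiber genes, 5 rose, and 1 to 7 over libraries left out in turn (1 without KO+GFP replicate 1 or 3), while edgeR called 2 and DESeq2 1. *Tnnc1*, a troponin of slow fibers and heart, rose by 4.22 ± 1.01 (limma, adjusted *P* = 0.0444), a call lost without any library other than control replicate 1 (3.09 to 4.37, adjusted *P* = 0.0910 to 0.169). The slow fiber sum, led by the slow myosin *Myh7*, was 1583 to 2063 rpm in KO+GFP and 158 to 1016 rpm in control muscle. None of these 3 sums overlapped between the groups. The sum of fast and general muscle fiber genes was lower in KO+GFP without overlap, at 123090 to 131389 rpm against 140028 to 155771 rpm, while 3 of the 10 genes rose and 0 fell. Among these, the call of the fast myosin *Myh1* was lost without KO+GFP replicate 2 or 3 or control replicate 1 or 3 (1.02 to 1.26, limma, adjusted *P* = 0.0526 to 0.150). The part of these cells in the *Lep* difference was not tested.

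From 10 to 40 weeks, 0 of the 10 white adipocyte markers were called in WT muscle by limma (0.148% of all genes), edgeR, or DESeq2, and 2 had an unadjusted *P* under 0.05 (median 0.72, *Trarg1* 1.28 ± 0.42, adjusted *P* = 0.344). In KO, 8.31% of all genes were called in either direction, and 2.91% without the library labelled KO replicate 2. Of the 10 markers 1 rose in KO, *Plin4* by 1.18 ± 0.30 (limma, adjusted *P* = 0.0156), while 9 of the 10 were negative (median -0.48). Without that library *Plin4* rose by 0.88 and the call was lost (adjusted *P* = 0.0740). *Jak2* fell in KO by 0.76 ± 0.15 (adjusted *P* = 0.00261). It was also called lower in KO+AAV, a call lost without 40-week KO+AAV replicate 1, 3, 4, or 5 (-0.43 to -0.47, limma, adjusted *P* = 0.0606 to 0.0978). *Socs3* was called lower in KO+AAV too, a call lost without replicate 1, 3, or 5 (-1.51 to -1.79, adjusted *P* = 0.0521 to 0.0970). In KO+AAV, 3 fibroblast markers fell, among them *Col1a1* by 2.45 ± 0.58 (adjusted *P* = 0.00694) and *Col3a1* by 1.99 ± 0.52 (adjusted *P* = 0.0136), where 8.53% of all genes were called in either direction. Without KO+AAV replicate 2 at 40 weeks 1 fibroblast marker fell, and the *Col3a1* call was lost (-1.35, adjusted *P* = 0.0682). In KO+AAV 0 white adipocyte markers were called between the ages (0 at unadjusted *P* under 0.05, 0 by edgeR and DESeq2).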

How the data were processed

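The authors aligned reads to GRCm38 (mm10) with HISAT2, and counted them per gene with HTSeq. The deposited values are normalized counts (a signal), each the reads of a gene over the DESeq2 size factor of its library. Gastrocnemius, each other tissue, and the GFP experiment were normalized separately. The annotation release and strand setting are not given in the sources used here, and 0% of the exon bases of each of the 10 genes overlap a gene on the other strand in GENCODE M21. Multiplied by the size factor, 100% of values above 0 were whole reads (tolerance 0.01) in all 72 libraries. Of the 55401 genes, 99.5% had a symbol.

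Normalized counts were tested as log2(normalized count + 1) by limma-trend (limma 3.58.1, R 4.3.3) for genes with a mean above 5. The 34 gastrocnemius libraries of the main experiment, in 6 groups, shared a model with the site of sequencing (ICBR or Novogene) as covariate, and separate models were made for the GFP experiment and for each other tissue. A call is a Benjamini-Hochberg adjusted *P* under 0.05 over all tested genes. edgeR 4.0.16 and DESeq2 1.42.0 were run on the recovered reads as alternatives. Fold changes of low genes are understated by the added 1. The code was tested on simulated data.

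At 10 weeks, 3 WT, 3 KO, and 4 KO+AAV muscles were sequenced at ICBR and 3 of each at Novogene. All other muscles came from Novogene. Libraries of the other tissues came from ICBR. The labels say only that the samples are separate, so *P* values measure the spread between these samples. Replicate numbers did not pair the samples.

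The 10 genes and the 20 lists (155 genes) were chosen with earlier results of these data known. Not every list is reported here. *Car3* and *Aebp1* led the KO+AAV versus KO contrast at 10 weeks, and which values chose the other 8 is not recorded. Named in the text are the 10 genes, *Arntl*, the most abundant gene of a list, up to 2 genes per list and direction with an adjusted *P* under 0.05 and the largest log2 difference (or, where none passed, up to 2 with the smallest *P*), and the 5 genes most correlated with *Lep*, *Adipoq*, *Car3*, and *Aebp1*. Some genes whose call was lost when a single library was left out, and the clock genes of the label check, are named as well. Leaving out WT replicate 4 or KO+AAV replicate 4 at 10 weeks was chosen after seeing the data. Promoters are RefSeq sequences.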

Additional observations from a re-analysis of the deposited data

Results flagged for a closer look

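Of 129 groups of 4 to 7 values of the 10 genes, 16 held 1 library set apart from the others by a gap that is large against the range of the group. How many such groups chance gives for these values was not tested, and the same libraries recur among the 16.

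In white fat, KO+AAV replicate 2 was low in *Lep* (17127, others 80989 to 91808), *Plin1* (53500, others 136677 to 154299), and *Car3* (372683, others 863041 to 1008520). This library also held 178 rpm of skin and mammary epithelium markers, against 1.40 to 14.8 rpm in the other KO+AAV fats. KO replicate 2, the fat with epididymis genes, was low in *Cfd* (84690, others 294247 to 376299).

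In lung, KO replicate 3 was high in *Lep* (218, others 0 to 0.867) and *Fabp4* (14381, others 409 to 734). In heart, KO replicate 2, which held hepatocyte genes, had *Adipoq* at 0 (others 74.0 to 95.4) and *Cidec* at 3.89 (others 79.9 to 115).

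In 10-week muscle, WT replicate 4 was low in *Car3* (14202, others 27826 to 35000) and *Aebp1* (818, others 1433 to 1999), WT replicate 2 was high in *Cidec* (154, others 33.3 to 59.0), KO replicate 7 had *Retn* at 0 (others 18.9 to 86.8), and KO+AAV replicate 4 was high in *Pparg* (147, others 51.5 to 76.1). In 40-week muscle, the library labelled KO replicate 2 was low in *Fabp4* (1015, others 2031 to 2411) and high in *Cidec* (143, others 39.3 to 55.2), and KO replicate 3 was high in *Car3* (34988, others 7899 to 10779).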

How the results depend on the processing

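No result changed direction while past its threshold. The number of the 10 genes called moved as follows. Nothing is read from these counts, since these contrasts named the genes, and the cause was not tested. KO+AAV versus KO at 10 weeks had 2 calls, and 1 with ICBR libraries alone. WT versus KO at 40 weeks had 4, and 2 with the 2 groups alone (3 to 5 over libraries left out). KO+AAV versus KO at 40 weeks had 1, with 0 in the 2 groups alone and 2 at unadjusted *P* under 0.01 (1 to 2, with 2 without KO replicate 3). In WT, 40 versus 10 weeks had 1, with 0 under the replicate block, without the site term, with Novogene alone, and with the 2 groups alone, 2 at unadjusted *P* under 0.01, and 0 to 1 over libraries left out (0 without WT 40-week replicate 2, 3, or 4). In KO, it had 2, with 1 without a filter, by edgeR, and with Novogene alone, 0 under the replicate block and with the 2 groups alone, and 1 to 2 over libraries left out (1 without KO 40-week replicate 1, 2, or 3). The GFP comparison had 0, with 1 without a filter and by DESeq2, 2 at unadjusted *P* under 0.01, and 0 to 1 (1 without control replicate 1). For the change with age of WT minus KO, DESeq2 called 3 list genes and limma 0.

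Over libraries left out, the median log2 difference of the 10 genes was 0.29 for WT versus KO at 10 weeks (without WT replicate 4), 0.65 for KO+AAV versus KO at 10 weeks (without KO+AAV replicate 4), 1.05 to 1.55 and 0.38 to 1.08 for the same comparisons at 40 weeks, 0.19 to 1.02 for GFP, -0.04 to 0.89 for white fat, 1.81 to 4.46 for lung, and -0.71 to 0.65 for heart. Of the comparisons' summary values, 366 kept their size and 26 moved. Same-numbered samples correlated at 0.0724 to 0.254 in WT versus KO at 10 weeks and at -0.244 to 0.195 at 40 weeks, and in no comparison were all pairs above 0.1. The replicate block moved the count of all genes called in 40 versus 10 weeks from 656 higher and 690 lower to 4 and 3 in KO. Leaving out the 40-week library labelled KO replicate 2 moved this count to 250 higher and 221 lower. Depth limits *Lep* in 40-week KO muscle, which rests on 9 reads.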
